A study of Mus musculus with 24 samples.

Results

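The comparison set interscapular brown fat of mice whose brown adipocytes lack the histone deacetylase HDAC3 (KO) against Control brown fat, 1 day after a short cold exposure. Its members are all 12657 genes of the authors' deposited table for this pair of groups, out of 13162 genes that appear in any deposited table of the series. Control mice were HDAC3 floxed and KO mice were Ucp1-cre HDAC3 floxed. All were male C57BL/6J mice aged 10 to 12 weeks on a 12 h light cycle. Both groups spent 24 h at 15 °C and then 24 h at 22 °C, and the fat was taken at ZT10, that is 10 h after lights on. Total RNA of 4 Control and 4 KO samples was sequenced after removal of ribosomal RNA. The same genotypes were also sampled at 22 °C without cold and 7 d after cold, with 4 libraries in each of the 6 groups of the series. The stated purpose of the series was to ask whether an effect of cold exposure lasts in Control and in HDAC3-deficient mice.

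HDAC3 removes acetyl groups from histones as the enzyme of a complex with the corepressor NCoR1, the scaffold proteins TBL1X and TBL1XR1, and GPS2. In brown fat it is best known for its place in the programme of heat production, in which UCP1 lets the mitochondria burn fuel without making ATP. The Ucp1 promoter drives Cre in brown adipocytes, and whole brown fat also holds vessels, nerve, stroma and immune cells that keep the gene. In whole tissue, fewer cells of a type and less RNA per cell cannot be told apart.

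The deposited tables give a mean per group, a fold change and a p-value, and no value per library. Reads per library were rebuilt from the means for 11739 of the genes, and are given here as scaled RPKM (reads per gene length and library total, divided by a median ratio factor of the library). The 4 Control libraries held 7513585 to 9805155 reads and the 4 KO libraries 6401435 to 11977140. They are numbered by falling total, because they cannot be tied to the replicate numbers of the labels. The abundant genes, among them 403 that passed the test, have no library values. The labels' protocols call the samples biological replicates. Log2 fold changes (KO over Control) and adjusted p-values are those of the deposited table unless limma is named, and "higher" or "lower" means an adjusted p under 0.05 there.

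Some libraries stood apart before any gene was considered. The first principal component, with 43% of the variance, separated the genotypes, and the second, with 20%, ran from Control 1 (24.98) to Control 4 (-21.11). Summed macrophage markers, of which 26 of 28 listed genes had library values, were at 458, 388, 154 and 123 scaled RPKM in Control 1 to 4 and at 244, 210, 149 and 202 in KO 1 to 4. Skeletal muscle markers (26 of 28) summed to 1203 in Control 3 and 570 in KO 2, against 32.6 to 106 in the other 6 libraries. Their part in the results was not tested.

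Of the 12657 genes, 2342 (18.5%) passed the authors' adjusted p of 0.05. In KO brown fat 1335 genes (10.5%) were higher and 1007 (7.96%) were lower, so that 57.0% of the calls were higher. The median log2 fold change over all genes was -0.05, with quartiles of -0.31 and 0.21. On the library values, limma called 1835 of 11739 genes (15.6%), 1102 higher and 733 lower, which is 60.1% higher. Of the 1939 deposited calls with library values, 1574 were also called by limma and none in the opposite direction. The libraries of the groups did not overlap for 1342 genes higher in KO (11.4%) and 1104 lower (9.40%), among them 1525 deposited calls. With library totals alone in place of the median ratio factors, the median of all genes moved by -0.157 log2 and limma called 556 genes higher and 1662 lower, or 25.1% higher. Small list medians are read against that shift, and counts of called list members against the 10.5% and 7.96% of all genes. Without Control 2 limma called 1152 genes, 720 higher and 432 lower, without Control 3 it called 425 lower, and without KO 1 it called 483 lower.

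**Figure D1:**
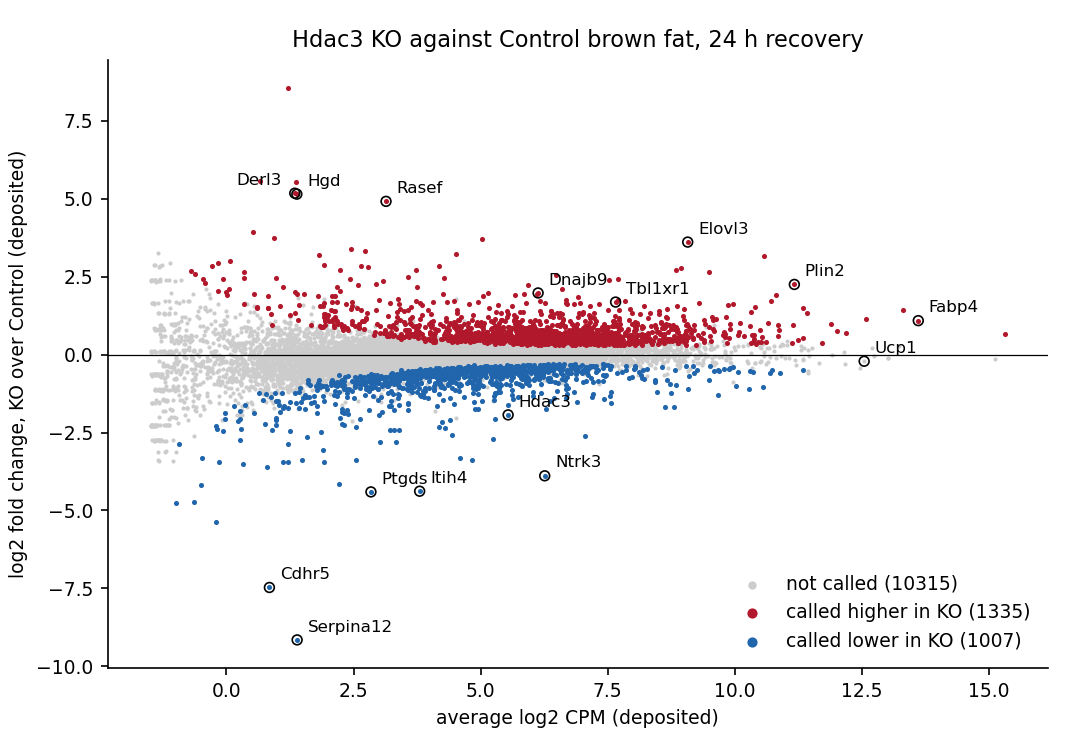
Deposited log2 fold change of KO over Control at 24 h of recovery (vertical) against the deposited average log2 CPM (horizontal), 1 point per gene, with the 1335 genes called higher in red, the 1007 called lower in blue and the others in grey. Circles mark genes named in the text. Hdac3 lies among the genes called lower, and Ucp1 among the uncalled genes.

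The targeted gene was lower in every KO library. Hdac3 stood at 22.5, 25.9, 27.5 and 26.8 scaled RPKM in the 4 Control libraries and at 6.79, 7.35, 6.61 and 6.36 in the 4 KO libraries, and the groups did not overlap. The deposited log2 fold change was -1.93, that is 3.82-fold lower (adjusted p = 4.65e-37), and limma gave -1.92 (adjusted p = 8.01e-06, at most 1.2e-04 without any 1 library). Which exons the floxed alleles remove is not given in the labels, and cells without Cre keep the transcript. Among the other histone deacetylases and sirtuins, none of 15 listed members was higher and 1 was lower, against 10.5% and 7.96% of all genes. The lower one was the mitochondrial desuccinylase Sirt5 (deposited log2 -0.54, adjusted p = 0.0447, limma adjusted p = 0.0405, and 0.107 without Control 3).

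Partners of HDAC3 in its complex were among the genes higher in KO. Tbl1x stood at 13.2, 11.6, 14.5 and 13.3 scaled RPKM in Control libraries and at 32.9, 31.8, 37.9 and 38.9 in KO libraries, with no overlap (deposited log2 1.40, adjusted p = 6.83e-25). Tbl1xr1, its close relative, rose 3.22-fold in the deposited table (log2 1.69, adjusted p = 9.70e-33). The corepressor Ncor1 rose by 0.74 on the log2 scale (adjusted p = 7.10e-08). Gps2, a further subunit, had a deposited log2 of -0.01 and did not pass the test.

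Many genes of the unfolded protein response were higher at this time. This response acts when the endoplasmic reticulum (ER) holds too many unfolded proteins: the sensors ATF6 and IRE1 (Ern1) switch on chaperones, disulfide isomerases and the machinery that exports misfolded proteins. Among its 24 listed members 15 were higher and 1 was lower, against 10.5% and 7.96% of all genes. The median log2 was 0.49 against -0.05 over all genes. A DNA motif bound by ATF6, the ER stress element, lies before many of these genes. It was searched in RefSeq promoters (build GRCm38.p6, 250 bases before to 50 after each start) as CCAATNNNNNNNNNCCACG on both strands. The search was added after the values had been seen. These are the windows of the 8 called members that hold it, and 6 other higher members with a promoter lacked it. Capitals mark the element, read on either strand.

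Hspa5 (chr2:34772005-34772063, + strand): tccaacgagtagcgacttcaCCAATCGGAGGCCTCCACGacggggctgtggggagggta
Hsp90b1 (chr10:86705513-86705571, - strand): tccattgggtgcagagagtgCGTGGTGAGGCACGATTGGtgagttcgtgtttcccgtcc
Calr (chr8:84847055-84847113, - strand): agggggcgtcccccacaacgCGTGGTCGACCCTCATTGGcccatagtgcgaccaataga
Canx (chr11:50325780-50325838, - strand): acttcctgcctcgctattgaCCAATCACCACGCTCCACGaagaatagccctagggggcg
Dnajc3 (chr14:118937807-118937865, + strand): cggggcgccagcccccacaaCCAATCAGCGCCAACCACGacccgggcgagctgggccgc
Pdia6 (chr12:17266471-17266529, + strand): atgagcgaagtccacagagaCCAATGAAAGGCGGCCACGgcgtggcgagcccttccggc
Creld2 (chr15:88819500-88819558, + strand): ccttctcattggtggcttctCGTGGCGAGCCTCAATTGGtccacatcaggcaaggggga
Derl3 (chr10:75893222-75893280, + strand): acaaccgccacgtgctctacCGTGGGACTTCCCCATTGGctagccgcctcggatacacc

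The element began from 65 (Hspa5) to 162 (Calr) bases before the start in these windows, and Hsp90b1 held a second one, at 212. It was rare elsewhere. Of the 12657 genes, 9153 (72.3%) had a promoter in the RefSeq table, and 15 of these (0.164%) held the element. Of the 1019 genes with a promoter that were higher in KO, 10 (0.981%) held it, and of the 747 that were lower, 0. Among the 20 response genes with a promoter, 9 held it and 8 of these were higher. The exception was the ubiquitin ligase Syvn1 (log2 0.49, adjusted p = 0.123). The 11 members without the element included 6 that were higher and 1 that was lower, and the median log2 was 0.50 with the element and 0.50 without it. The 6 other genes with the element were Acacb (log2 0.47) and Adcy3 (log2 1.12), which passed the test, and Alg12, Hnrnpa3, Pan2 and Xlr3b, which did not. Alg12 shares its window with Creld2, which is transcribed the other way.

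By role, several chaperones and folding enzymes of the ER were higher in the deposited table. Hspa5, the main ER chaperone (BiP), went from a mean of 140 to 192 RPKM (log2 0.59, adjusted p = 0.0189). Hsp90b1, the ER form of HSP90, went from 88.6 to 131 RPKM (log2 0.72). The lectin chaperones Calr and Canx had log2 values of 0.49 and 0.46. The disulfide isomerases Pdia3, Pdia4 and Pdia6 had log2 values of 0.50, 0.77 and 0.41. All of these passed the test, whereas the chaperone Hyou1 did not (log2 0.16, adjusted p = 0.574).

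Among cofactors and export factors, the cochaperone Dnajb11 did not pass (log2 0.29, adjusted p = 0.123). Dnajb9, a cochaperone that restrains IRE1, stood at 14.7, 12.5, 11.8 and 11.3 scaled RPKM in Control libraries and at 46.1, 48.6, 56.9 and 49.9 in KO libraries, a deposited 3.94-fold rise (adjusted p = 5.63e-21; limma adjusted p = 8.01e-06). Edem1, which directs misfolded glycoproteins to export, stood at 10.9 to 14.1 and at 17.8 to 20.1, again without overlap. Derl3, a channel factor of that export, stood at 0.131, 0.159, 0 and 0.398 in Control libraries and at 5.95, 2.27, 0.106 and 17.8 in KO libraries. Its deposited log2 was 5.18 (adjusted p = 2.49e-05), but KO 3 lay inside the Control range and the limma adjusted p was 0.0555. The sensor Ern1 was the 1 member that fell, from 2.22 to 3.24 scaled RPKM in Control libraries to 1.38 to 1.69 in KO libraries (deposited log2 -0.75). The messenger it splices, Xbp1, had a log2 of 0.27 (adjusted p = 0.380).

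KO 3 was low in the median of this group. It was still the highest KO library for Dnajb9 (56.9 scaled RPKM) and Xbp1 (33.6). The median deviation of the 19 members with library values, from their mean over the 8 libraries, was 0.34, 0.20, -0.30 and 0.28 log2 in KO 1 to 4 and -0.35 to -0.07 in the Control libraries. Creld2 stood at 14.3, 8.58, 4.34 and 17.5 scaled RPKM in KO 1 to 4 against 4.09 to 6.03 in Control libraries. Sdf2l1, another chaperone cofactor, stood at 10.6, 5.79, 2.55 and 12.9 against 1.2 to 3.87. Limma called 4 of the 19 members higher with all libraries, 11 without KO 3 and 2 to 6 without any other library. It called Ern1 lower with all libraries and without any 1 of them. At 7 d of recovery 1 of the response genes was higher and 1 lower in the deposited table, with a median log2 of 0.00.

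**Figure D2:**
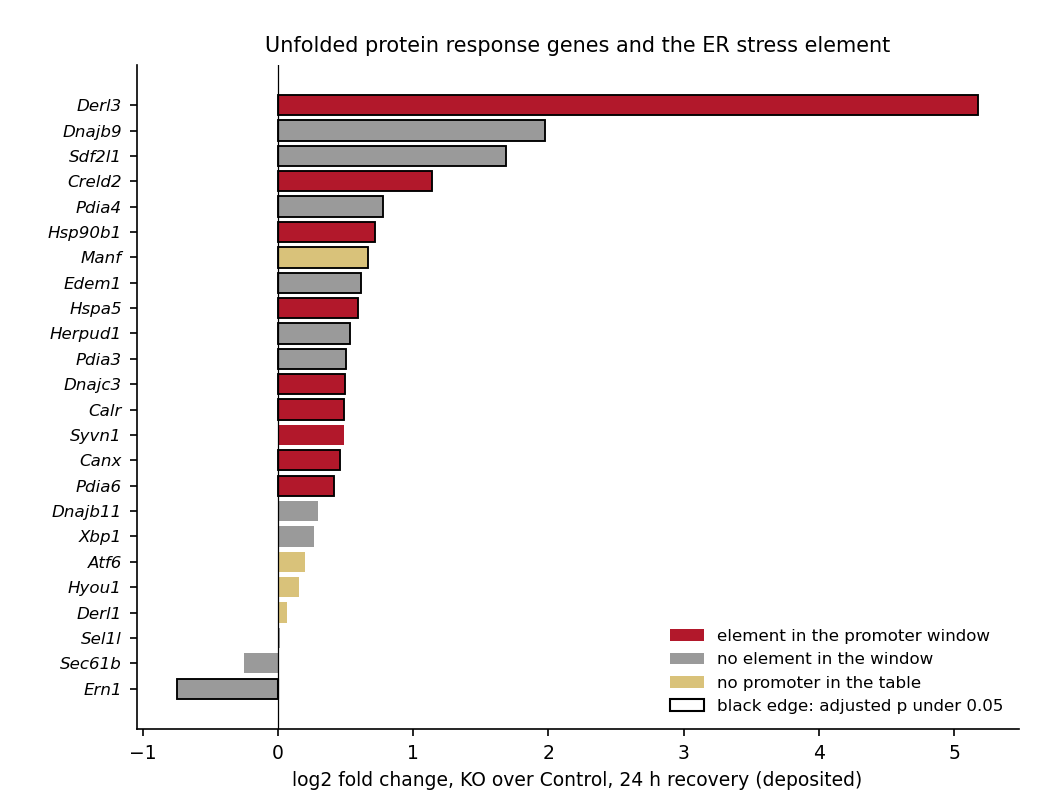
Deposited log2 fold change of KO over Control (horizontal) for the 24 genes of the unfolded protein response, ordered by size. Red bars have the ER stress element in their promoter window, grey bars do not, yellow bars have no promoter in the table, and a black edge marks an adjusted p under 0.05. Most bars lie to the right of 0 whether or not the window holds the element, and Ern1 is the called gene to the left.

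Most proteasome genes were higher. The proteasome degrades proteins tagged with ubiquitin. Of its 35 listed genes 28 were higher and none lower, against 10.5% and 7.96% of all genes. Their median log2 was 0.48, with values from 0.03 to 1.47. The ring subunits Psma1 (log2 1.47, adjusted p = 9.02e-25) and Psma6 (log2 1.07) led. Psmd12, of the regulatory lid, stood at 35.4, 32.5, 33.7 and 31.3 scaled RPKM in Control libraries and at 48.0, 56.4, 48.5 and 66.4 in KO libraries. Psmb5, which carries one of the proteolytic sites, stood at 58.6 to 77.6 and at 101 to 117. The groups did not overlap for 22 of the 26 members with library values, each higher in KO, against 11.4% of all genes. Limma called 19 of those 26 higher, and 17 to 20 without any 1 library. The factor known to switch on proteasome genes when the enzyme is inhibited, Nfe2l1, had a deposited log2 of 0.20 (adjusted p = 0.230).

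Of 22 heat shock proteins and chaperones, 7 were higher and none lower, against 10.5% and 7.96% of all genes (median log2 0.37). They included the cytosolic Hsp90aa1 (log2 0.88), Hspa4 (0.55) and the cochaperone Chordc1 (0.66). Limma called 5 of the 16 with library values higher, and 3 to 6 without any 1 library. The mitochondrial chaperonin was higher in both of its parts. Hspd1 had a deposited log2 of 0.82 (adjusted p = 6.06e-11), and Hspe1 stood at 77.3 to 88.4 scaled RPKM in Control libraries and at 128 to 156 in KO libraries.

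For import and protein quality in mitochondria, 12 of 32 listed genes were higher and none lower, with a median log2 of 0.23 (0.09 as a ratio of the deposited means, without the authors' factors). Timm50, a receptor of the inner membrane translocase, stood at 58.4, 59.0, 67.6 and 57.7 scaled RPKM in Control libraries and at 95.8, 99.2, 97.1 and 106 in KO libraries, with no overlap. Timm8b, a carrier of the space between the membranes, stood at 101 to 127 and at 204 to 249. The protease regulator Clpx had a deposited log2 of 0.68. Of the 76 genes of the mitochondrial ribosome, 15 were higher and 5 lower, with a median log2 of 0.12, which became -0.02 as a ratio of the means. The largest value was that of Mrps18b, at 20.3, 24.3, 22.5 and 24.6 scaled RPKM in Control libraries and at 54.6, 54.7, 53.6 and 66.4 in KO libraries. Of 73 genes of the cytosolic ribosome 0 were higher and 8 lower (median -0.18), with Rplp1 (log2 -0.49) among the lower ones. Over all genes, 10.5% were higher and 7.96% lower. Many ribosomal and chaperonin genes have pseudogene copies, and the sources used here do not say how shared reads were counted.

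**Figure D3:**
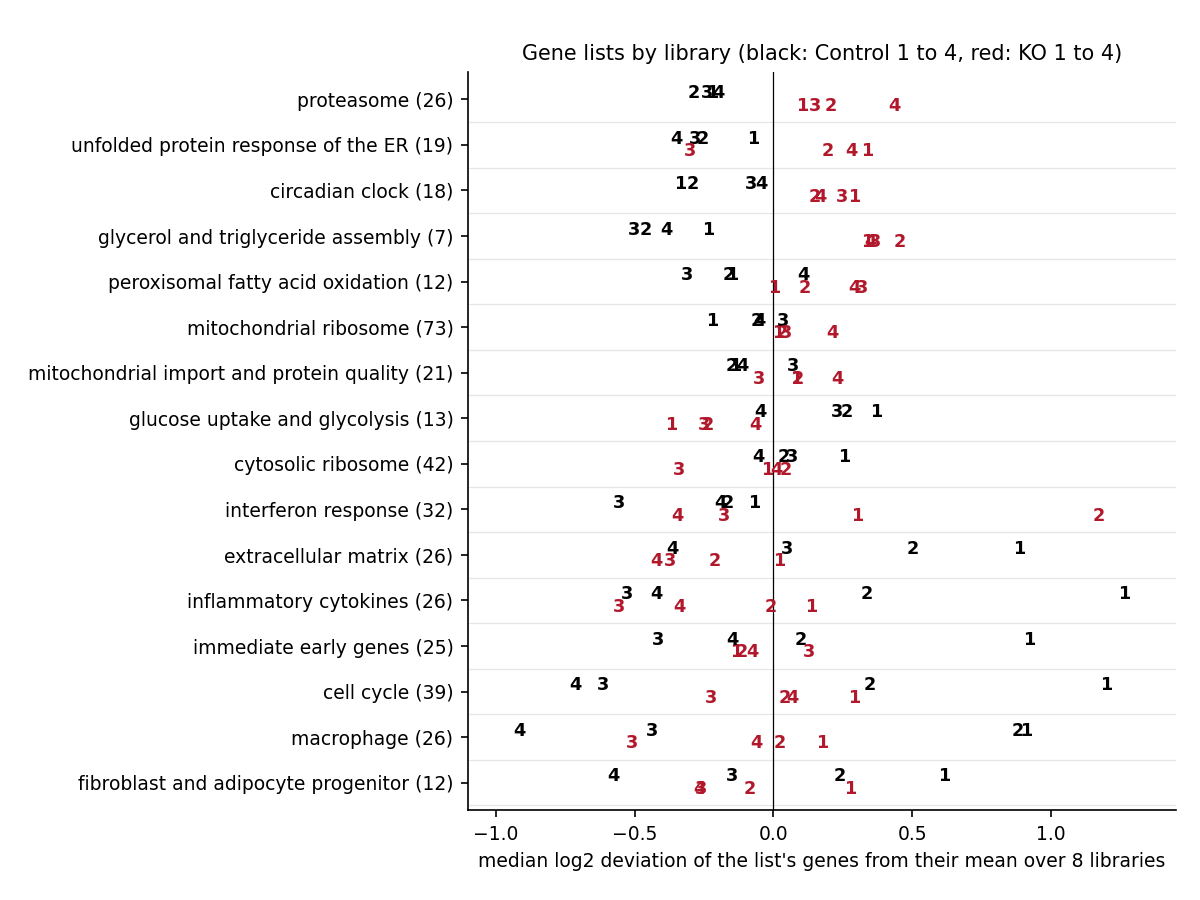
Gene lists (vertical, with the number of members that have library values) against the median log2 deviation of their members from the mean over the 8 libraries (horizontal), with the library number in black for Control and in red for KO. The proteasome numbers separate by genotype. In the unfolded protein response KO 3 lies among the Control libraries, and in the extracellular matrix, cytokine and cell cycle lists Control 1 lies far to the right, as do Control 1 and 2 in the macrophage list.

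Among the largest fold increases were genes with very few reads in Control brown fat. A gene was listed where its higher group had a mean of at least 0.5 RPKM, so genes near 0 in 1 group entered the table through the other. Hgd, an enzyme of tyrosine breakdown, stood at 0.0513, 0.125, 0 and 0.0778 scaled RPKM in Control libraries and at 1.97, 2.24, 1.82 and 4.42 in KO libraries (deposited log2 5.15, adjusted p = 1.63e-16). Rasef, a Rab-family GTPase, stood at 0.0224 to 0.287 and at 2.11 to 4.24 (log2 4.92). Chrna2, a subunit of the nicotinic acetylcholine receptor, stood at 0.678 to 2.23 and at 10.1 to 15.6 (log2 3.22). The groups did not overlap for any of these. Slc6a13, a transporter of GABA and taurine, and Gnai1, an inhibitory G protein subunit, had deposited log2 values of 3.34 and 1.84. Among abundant genes, the elongase Elovl3 went from 64.4 to 713 RPKM (log2 3.61) and the cytochrome P450 Cyp2e1 from 76.1 to 606 RPKM (log2 3.16) in the deposited table. Sec14l2, a lipid-binding protein, stood at 0.105 to 0.547 in Control libraries and at 0.664, 0.667, 3.12 and 11.3 in KO 1 to 4, with a deposited log2 of 3.40 but a limma adjusted p of 0.0618.

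Among the largest decreases were secreted proteins and receptors. Ptgds, which makes prostaglandin D, stood at 12.2, 24.4, 39.99 and 14.4 scaled RPKM in Control libraries and at 1.10, 0.559, 1.05 and 1.67 in KO libraries (deposited log2 -4.41, adjusted p = 5.84e-14). Itih4, a secreted inhibitor family protein, stood at 4.58 to 27.6 and at 0.391 to 1.24 (log2 -4.38). Ntrk3, a neurotrophin receptor, stood at 4.11 to 18.7 and at 0.632 to 1.13 (log2 -3.89). These groups did not overlap, nor did those of Lctl (klotho family), with 9.36 to 15.7 and 0.814 to 2.34, or Isyna1 (inositol synthesis), with 18.2 to 36.4 and 4.10 to 5.62. Of the protein-coding genes named here, Serpina12 and Cdhr5 had no read in any KO library. The adipokine Serpina12 (vaspin) stood at 1.73, 3.14, 3.84 and 0 in Control libraries and was at least 99.3-fold lower in KO, against a floor of 3 reads over the group. Control 4 also had no read of it, and the limma adjusted p was 0.0255, or 0.0790 without Control 2. Cdhr5, a cadherin of brush borders, stood at 0.433, 1.74, 1.37 and 0.253 and was at least 30.5-fold lower.

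**Figure D4:**
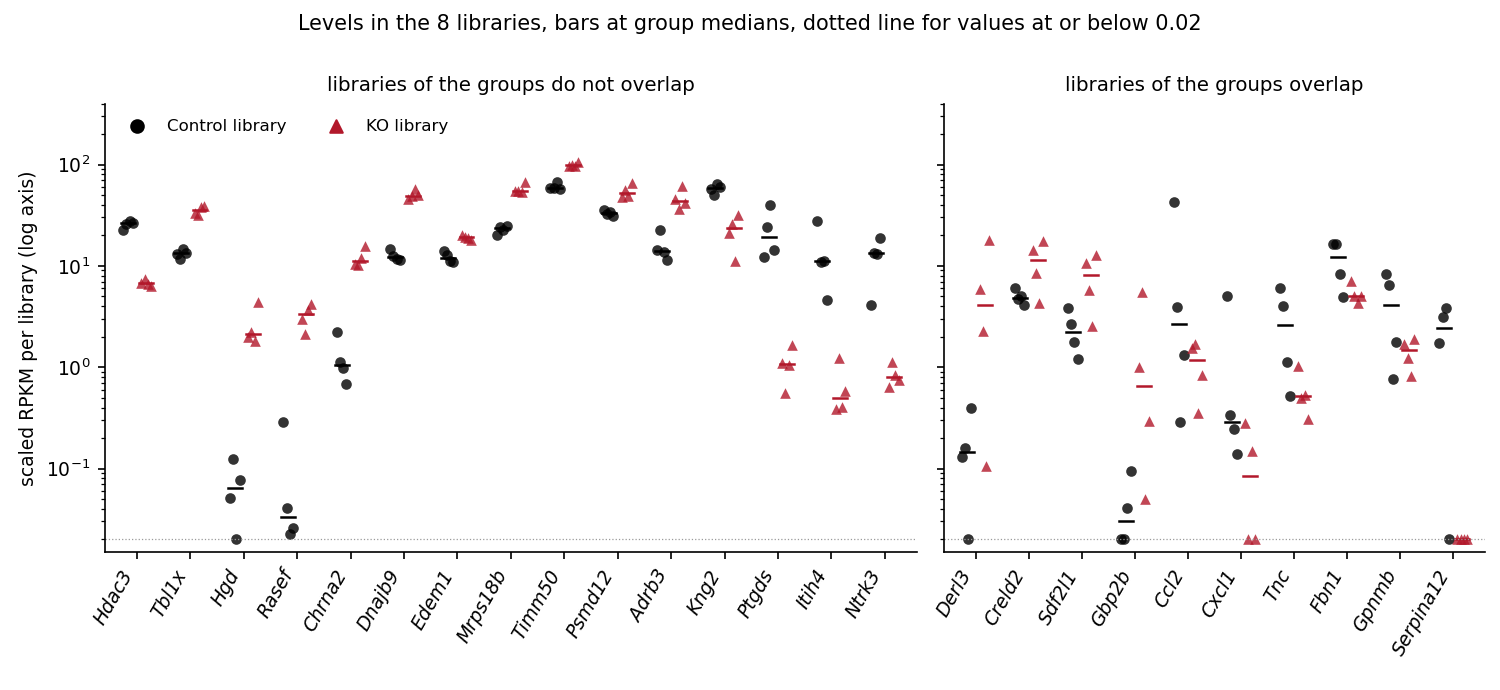
Scaled RPKM in each library (vertical, log axis) for 25 genes, with Control libraries as black circles, KO libraries as red triangles and bars at the group medians. Values at or below 0.02, zeros included, are drawn on the dotted line. The left panel holds genes whose groups do not overlap and the right panel genes whose groups do, among them Derl3, Creld2 and Sdf2l1 with KO 3 low and Ccl2 and Cxcl1 with Control 1 high.

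Fatty acid oxidation runs in peroxisomes and in mitochondria. Peroxisomes shorten very long and branched fatty acids, and 12 of 21 listed genes were higher and 2 lower in the deposited table, with a median log2 of 0.41. They included Abcd3, a fatty acid carrier of the peroxisomal membrane (log2 0.72), and the multifunctional enzyme Hsd17b4 (log2 0.52). Outside the list, Hacl1, which cleaves branched chains in peroxisomes, went from 29.3 to 139 RPKM (log2 2.39). Pex11a, a factor of peroxisome division, stood at 15.3, 19.97, 16.1 and 21.5 scaled RPKM in Control libraries and at 25.2, 30.2, 35.0 and 33.0 in KO libraries. Of 28 genes of the mitochondrial arm 8 were higher and none lower, with a median log2 of 0.17, which became 0.04 as a ratio of means. The 8 included the enzyme Ehhadh, which works in peroxisomes and went from 74.7 to 419 RPKM (log2 2.64), the acyl-CoA synthetase Acsl1 (log2 1.14), Mlycd, which removes the inhibitor malonyl-CoA (0.97), and Cpt2 of the carnitine shuttle (0.49). Only 5 of the 28 had library values, none of them among the 8, so limma could not check those calls. It called 0 of the 5, with all libraries and without any 1 of them. The dehydrogenases Acadm and Acadvl had log2 values of 0.22 and -0.28 and did not pass.

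Genes of fat uptake and storage were among those higher. Of 20 uptake genes 11 were higher and 3 lower, against 10.5% and 7.96% of all genes (median log2 0.81). Only 6 of the 20 had library values, with 3 deposited calls among them, and limma called 1 higher and 0 lower. Their median deviation was -0.12 to 0.17 log2 in Control libraries and -0.12 to 0.02 in KO libraries. Lipoprotein lipase (Lpl) went from 1238 to 3027 RPKM (log2 1.43), the binding protein Fabp4 from 9915 to 19070 RPKM (log2 1.09) and the receptor Vldlr from 26.2 to 69.8 RPKM (log2 1.56) in the deposited table. The synthetase Acsl5 went the other way (log2 -1.68). For triglyceride assembly the count was 8 of 18 higher and none lower, with a median log2 of 0.48, led by Mogat2 at 0.247 to 0.590 scaled RPKM in Control libraries and 2.10 to 3.89 in KO libraries. The terminal enzyme Dgat2 rose 1.99-fold. On the droplet, 7 of 18 genes were higher and 2 lower (median 0.36), with the coat protein Plin2 at 385 and 1634 RPKM (log2 2.25), Cidec, which enlarges droplets (log2 1.33), and hormone-sensitive lipase, Lipe (log2 0.78). Only 4 of these 18 had library values, with 0 deposited calls among them, so limma could not check those calls. Genes of mature adipocyte identity, several of which stand on these lists too, were higher in 12 of 20 and lower in none (median 0.63). The master regulator Pparg was uncalled (log2 0.01, adjusted p = 1.00), and Cebpa was higher (log2 0.96).

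Fatty acid synthesis did not move as a block. Of 22 listed genes 9 were higher and 4 lower, against 10.5% and 7.96% of all genes, with a median log2 of 0.28. The desaturase Scd2 (log2 2.73), malic enzyme Me1 (log2 1.62) and elongase Elovl5 (log2 0.96) were higher, while the regulators Mlxipl (log2 -0.82) and Srebf1 (log2 -0.49) and the citrate carrier Slc25a1 (log2 -0.70) were lower. The core synthase Fasn had a deposited log2 of -0.15 and Acly one of -0.58, and neither passed. Of 21 sterol genes 5 were higher and 1 lower in the deposited table, with a median log2 of 0.13 that became 0.00 as a ratio of means. Mvd, which makes isopentenyl pyrophosphate, stood at 1.83, 1.77, 1.87 and 1.35 scaled RPKM in Control libraries and at 4.74, 4.71, 4.99 and 4.23 in KO libraries.

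Genes of glucose use went both ways. Of 28 genes of uptake and glycolysis 3 were higher and 7 lower, with a median log2 of -0.27. Fbp2, a fructose bisphosphatase, stood at 13.4 to 33.3 scaled RPKM in Control libraries and at 2.98 to 6.69 in KO libraries, and Pfkl, the liver-type phosphofructokinase, had a deposited log2 of -0.81. Pfkfb3, which makes an activator of glycolysis, was higher (log2 1.12). Of the kinases that shut pyruvate dehydrogenase, Pdk4 was higher (log2 1.03) and Pdk1 lower (log2 -1.20). For glycogen, Gyg, which primes the chain, stood at 33.8 to 45.7 and at 79.7 to 100, while branching enzyme Gbe1 (log2 -0.94) and the phosphorylase Pygl (log2 -1.29) were lower, as part of 2 higher and 3 lower of 22 glycogen genes. The pyruvate and TCA cycle list held 5 of 33 higher and 7 lower (median -0.12). Over all genes, 10.5% were higher and 7.96% lower.

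The thermogenic programme was split at 24 h. Ucp1 had deposited means of 4966 RPKM in Control and 3884 RPKM in KO, with a log2 of -0.21 and an adjusted p of 0.779. Of 35 listed genes 8 were higher and 7 lower, against 10.5% and 7.96% of all genes, with a median log2 of -0.09. The β-adrenergic receptor Adrb3, through which noradrenaline starts heat production, stood at 14.3, 22.5, 13.7 and 11.5 scaled RPKM in Control libraries and at 45.6, 36.8, 61.8 and 41.5 in KO libraries, with no overlap (deposited log2 1.56, adjusted p = 7.71e-09). Downstream of it, the stimulatory G protein Gnas was lower (log2 -1.04) and the cyclase Adcy3 higher (log2 1.12). Other brown fat markers of the list went both ways. Elovl3 (log2 3.61, the highest of the list), Ppara and Pdk4 were higher. Kng2, a kininogen, and S100b, a calcium-binding protein, were lower. Kng2 stood at 50.3 to 63.9 and at 11.2 to 31.7, and S100b at 35.0 to 52.5 and at 11.4 to 20.2. Prdm16 (log2 -0.14), Cidea (-0.09), Dio2 (0.75) and Ppargc1a (-0.21) did not pass. Of 22 brown fat transcription factors 1 was higher and 1 lower, against the same shares of all genes. The lower one was Ebf2 (log2 -0.60, limma adjusted p = 0.0350, and 0.0861 without KO 4).

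Nuclear receptors and coactivators of oxidative genes showed 9 of 29 higher and 1 lower. Their median log2 of 0.10 became -0.04 as a ratio of means. Ppara, the receptor that drives fatty acid oxidation genes, rose 1.72-fold (adjusted p = 4.71e-06). Tfam, which packages and copies mitochondrial DNA, stood at 10.0 to 11.8 scaled RPKM in Control libraries and at 15.1 to 16.7 in KO libraries. Gabpa, which activates respiratory genes, stood at 16.3 to 19.1 and at 25.2 to 30.2. Esrra, the receptor ERRα, had a deposited log2 of -0.31 (adjusted p = 0.0824). Its groups did not overlap, at 49.2 to 58.9 and at 40.8 to 46.8, and limma called it lower (adjusted p = 0.0437, and 0.125 without Control 3). Of 37 genes of complex I none was higher and 9 were lower (median -0.13), with Ndufs8 at log2 -0.71. For complexes II and III the count was 1 higher and 2 lower of 14. It was 0 and 2 of 16 for complex IV, and 1 and 2 of 16 for ATP synthase. The shares over all genes were 10.5% higher and 7.96% lower. The lower complex IV genes were Cox7a1 (log2 -0.50) and the tissue-restricted Cox6b2 (log2 -3.44), which stood at 2.41 to 6.55 and at 0.143 to 0.914 scaled RPKM.

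The circadian clock was sampled at 1 time of day only. HDAC3 serves the repressors REV-ERBα (Nr1d1) and REV-ERBβ (Nr1d2), which silence Arntl and other clock targets. Of 21 clock genes 9 were higher and 3 lower in the deposited table, against 10.5% and 7.96% of all genes (median log2 0.24). Nr1d1 stood at 6.21, 4.73, 6.60 and 3.36 scaled RPKM in Control libraries and at 10.7, 15.3, 12.0 and 16.7 in KO libraries, with no overlap (deposited log2 1.36, adjusted p = 3.32e-07). Dbp, an output gene of the clock, stood at 13.6 to 16.7 and at 26.1 to 34.1, and the activator Rora at 2.54 to 2.90 and at 4.92 to 5.80. Arntl itself had a log2 of 0.61 (adjusted p = 0.0611), and Per1, Per2, Per3 and Cry1 did not pass. Cry1 was lower by limma without overlap of the groups (adjusted p = 0.0498, and 0.132 without Control 3).

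Hormones and secreted factors went both ways, and their counts are read against the 10.5% higher and 7.96% lower of all genes. Of 22 factors secreted by brown fat 3 were higher and 6 lower in the deposited table: the peptide Apln stood at 2.81 to 7.64 and at 0.746 to 1.12 scaled RPKM, the growth factor Fgf9 at 0.674 to 0.977 and at 0.0682 to 0.245, and Angptl4, an inhibitor of lipoprotein lipase, had a log2 of 1.3. Of 20 white fat markers 9 were higher and 2 lower (median 0.54). Leptin, Lep, stood at 4.49, 3.76, 3.82 and 1.79 in Control libraries and at 13.5, 8.84, 12.0 and 9.17 in KO libraries, without overlap. The amino acid carrier Slc7a10 stood at 7.42 to 10.3 and at 19.4 to 41.4. Alpl, a phosphatase placed in the creatine cycle of heat production, stood at 4.17 to 7.75 and at 14.9 to 27.3.

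Several signalling and stress lists are set against the 10.5% of all genes that were higher and the 7.96% that were lower. The insulin signalling list had 7 higher and 3 lower of 25, with the receptor Insr at log2 0.69 and Irs2 at -0.97. The antioxidant list had 8 higher and 4 lower of 33, with the peroxidase Prdx6 at log2 1.02 and the secreted Gpx3 at -1.68. The integrated stress response had 4 higher and 2 lower of 25, and its factors Atf4 (log2 0.28), Ddit3 (0.48) and Trib3 (0.58) did not pass. Mitochondrial carriers had 7 higher and 5 lower of 40, branched-chain amino acid breakdown 4 and 3 of 24, the hypoxia response 5 and 2 of 20, p53 targets 3 and 0 of 20, and the cell cycle 1 and 0 of 39. The β-adrenergic list, with Adrb3, had 4 and 3 of 27, the creatine and calcium cycling list 2 and 1 of 11, and thyroid hormone activation 1 and 2 of 8. Immediate early genes had 0 higher and 1 lower of 25, and Fos (log2 -1.81, adjusted p = 0.193) stood at 7.86, 0.864, 0.389 and 0.190 scaled RPKM in Control libraries and at 0.401 to 1.01 in KO libraries, with Control 1 the high one.

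Many matrix genes were lower in KO, and their level varied widely among the Control libraries. Of 40 extracellular matrix genes 17 were lower and 2 higher in the deposited table, against 7.96% and 10.5% of all genes (median log2 -0.54). The microfibril protein Fbn1 stood at 16.3, 16.4, 8.24 and 4.96 scaled RPKM in Control 1 to 4 and at 7.11, 5.06, 4.35 and 5.00 in KO 1 to 4 (deposited log2 -1.12, limma adjusted p = 0.0869). Tenascin C, Tnc, stood at 5.99, 4.06, 1.11 and 0.524 and at 0.307 to 1.03 (limma adjusted p = 0.0954). Among the 26 members with library values the median deviations were 0.89, 0.50, 0.05 and -0.36 log2 in Control 1 to 4. They were 0.02, -0.21, -0.37 and -0.42 in KO 1 to 4. Within each group the libraries fell in the order of their read totals and of the second principal component. The macrophage sums had that order in Control 1 to 4 (458, 388, 154 and 123) but not in KO 1 to 4 (244, 210, 149 and 202). Limma called 2 of these 26 lower with all libraries, 14 without Control 4 and 1 to 3 without any other. The crosslinking enzyme Lox went the other way without overlap, at 4.85 to 5.50 and at 6.68 to 9.83 (deposited log2 0.67). The part of macrophage RNA, read total or that component in the matrix result was not tested.

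Several inflammatory genes had a single high library. Of 26 cytokines and their kin 3 were higher and 5 lower, against 10.5% and 7.96% of all genes (median log2 -0.64). The monocyte attractant Ccl2 stood at 42.6, 3.96, 0.288 and 1.32 scaled RPKM in Control 1 to 4 and at 0.350 to 1.67 in KO libraries. Its relatives followed, with Ccl7 at 21.5 and Cxcl1 at 5.07 in Control 1 and at most 1.997 and 0.336 in the other 7 libraries. The deposited log2 values of Ccl2, Ccl7 and Cxcl1 were -3.44, -2.46 and -3.51, and the limma adjusted p-values were 0.418, 0.370 and 0.181. Of the genes that rose, Ccl5, a T cell attractant, stood at 0.657 to 1.00 and at 1.59 to 5.37, and Cxcl9, induced by interferon γ, at 1.60 to 5.30 and at 6.78 to 15.9, both without overlap. Without KO 1 the limma adjusted p of Ccl5 went from 0.0194 to 0.0620.

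Interferon response genes were higher in 11 of 32 and lower in none (median 0.64), against 10.5% and 7.96% of all genes. KO 2 lay far above the rest. The antiviral GTPase Gbp6 stood at 8.11, 26.6, 17.1 and 8.67 in KO 1 to 4 and at 2.99 to 6.00 in Control libraries. The immunoproteasome subunit Psmb8 stood at 26.3, 59.4, 29.6 and 22.2 and at 10.97 to 14.8. Gbp2 stood at 20.5, 73.9, 19.7 and 14.1 against 10.4 to 18.3, and Igtp at 8.30, 57.2, 14.6 and 10.1 against 4.8 to 12.0, so both overlapped and missed the limma threshold (adjusted p = 0.138 and 0.155). Limma called 2 of the 32 higher with all libraries, 2 without KO 2 and 2 to 4 without any other. The median deviation of the list was 1.17 log2 in KO 2 and between -0.55 and 0.30 in the other 7 libraries. Guanylate binding proteins have near-identical copies, so reads may be shared among them. T, B and NK lymphocyte markers, 2 of 6 of which were higher and none lower, summed to 3.5 to 7.73 scaled RPKM in Control libraries and to 7.25, 7.50, 7.71 and 11.7 in KO 3, KO 2, KO 1 and KO 4. Their part in the interferon and attractant results was not tested.

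Markers of the other cell types in the tissue are read against the 10.5% of all genes that were higher and the 7.96% that were lower. Of 28 macrophage markers 3 were lower (Spp1, Gpnmb and Itgam) and 1 was higher, Lpl, which adipocytes make too. Limma called none of the 26 with library values, and Cd68, Emr1 and Csf1r had overlapping libraries. Of 18 endothelial markers 2 were lower and none higher, of 15 of smooth muscle and pericytes 4 and none, of 15 of fibroblasts and progenitors 3 and none. Limma called 5 of the 15 smooth muscle and pericyte genes lower, and 2 to 5 without any 1 library. Mast cell (6), erythroid (10) and neutrophil (3) lists each held 1 lower gene and none higher. The pericyte adhesion molecule Mcam stood at 15.1 to 20.04 scaled RPKM in Control libraries and at 8.47 to 12.5 in KO libraries. Schwann and nerve markers summed to 67.4 to 89.1 and 41.3 to 56.3, and the called gene among 9 was S100b, which is also on the thermogenic list and is part of that sum, at the values given above. The median deviation of the 9 overlapped, at -0.40 to 0.42 log2 in Control libraries and -0.19 to 0.26 in KO libraries. Myelin basic protein, Mbp, had a deposited log2 of 0.36 (adjusted p = 0.0869), and overlapping groups with a limma adjusted p of 0.0442 (0.110 without Control 3). Of the 28 muscle markers and 9 MHC class II genes, 0 passed the deposited edgeR test, 0 had an unadjusted p under 0.05, and limma called 0 of the 26 and 9 with library values. The labelled tissue carried its defining genes in both groups, with Ucp1, Cidea, Fabp4 and Adipoq at deposited means of 488 RPKM or more.

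Compared with tissue at 22 °C that had not seen the cold, the KO effect was different for many genes. At 22 °C 4356 of 12710 genes (34.3%) passed the test, and 1387 genes were called at both times, that is 59.2% of the calls at 24 h and 31.8% of those at 22 °C. Of these 1387, 1244 had the same direction and 143 the opposite one. The 2 comparisons share no library, so the difference of effects was tested gene by gene with an error rebuilt from the deposited p-values. Of 10734 testable genes 1955 (18.2%) differed, 1162 with a more positive effect at 24 h and 793 with a more negative one. With an interaction term in limma on the library values 1966 of 11043 differed, and with the error rebuilt from a t distribution 2940 did.

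Heat production and respiration genes stood on the positive side. Ucp1 had a deposited log2 of -5.39 at 22 °C and -0.21 at 24 h (difference 5.18, adjusted p = 1.66e-17). In complex I, 37 of 37 genes were lower in KO at 22 °C, with a median log2 of -1.12, and the effect was more positive at 24 h for 32 of 35 testable genes and more negative for none. The counts were 22 and 1 of 31 for the thermogenic list, 44 and 0 of 73 for the mitochondrial ribosome, 20 and 0 of 30 for mitochondrial import and 19 and 0 of 27 for mitochondrial fatty acid oxidation. For all testable genes they were 1162 and 793 of 10734. Kng2 had log2 values of -8.30 and -1.39, and Lgr6, a receptor of R-spondins, of -9.70 and -1.75. Acaa2, the mitochondrial thiolase, had -3.32 and -0.11. For Ppara and Pdk4 the direction turned, from -1.31 to 0.78 and from -1.41 to 1.03.

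Lipid synthesis, early response and matrix genes stood on the negative side. Of 21 testable synthesis genes 10 had a more negative effect at 24 h and none a more positive one, with Fasn at log2 2.53 and -0.15 and Srebf1 at 1.5 and -0.49. For immediate early genes the count was 12 of 22 and none, with Fos at 3.82 and -1.81, and for matrix genes 16 and 1 of 38. In all, 793 of 10734 genes were more negative. At 24 h Fos was high in Control 1 alone (limma log2 -0.42, adjusted p = 0.801). The early gene list had a median deviation of 0.92 log2 in Control 1, and the matrix list 0.89 and 0.50 in Control 1 and 2. The part of these libraries in the difference was not tested. Hsd3b7, an enzyme of bile acid synthesis, turned from 0.43 at 22 °C to -1.5 at 24 h (adjusted p of the difference = 2.99e-14), where it stood at 33.1 to 49.9 scaled RPKM in Control libraries and at 13.2 to 15.4 in KO libraries. Hdac3 itself differed, from -1.37 to -1.93 (adjusted p of the difference = 0.0324).

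At 7 d of recovery 1910 of 12467 genes (15.3%) passed the test. Of the calls at 24 h, 1197 (51.1%) were called again, which is 62.7% of the calls at 7 d, and 1196 of them had the same direction. The difference between these times passed for 21 of 10425 testable genes (0.201%), with 626 at an unadjusted p under 0.05, for 434 genes with the error rebuilt from a t distribution, and for 2 genes by limma, with 1007 at an unadjusted p under 0.05. In all, 889 genes were called at all 3 times, 498 at 24 h and 22 °C only, 308 at 24 h and 7 d only, and 647 at 24 h only. A call at 24 h alone does not show a difference from the other times. The proteasome had 28, 24 and 17 of its 35 genes called higher at 24 h, 7 d and 22 °C, and the unfolded protein response 15, 1 and 5 of its members. Among all genes these were 1335 of 12657, 1144 of 12467 and 2074 of 12710. The effect on these response genes was more positive at 24 h than at 22 °C for 4 of 21 testable members and more negative for 2. That stands beside 1162 and 793 of 10734 genes in all. It differed from 7 d for none of 19.

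Other motifs were counted in the same promoters, with no test. The ERR half-site AAGGTCA was in 4.81% of promoters of genes higher in KO, 4.02% of those lower and 3.97% of all. The longer site TCAAGGTCA was in 0.393%, 0.268% and 0.339%. The cAMP response element TGACGTCA was in 3.63%, 2.14% and 3.61%, and the NRF1 site GCATGCGC in 6.38%, 4.28% and 6.15%. The E-box CACGTG, which clock activators bind, was in 14.4%, 8.84% and 12.0%. CCAAT, which is also part of the ER stress element, was in 42.4%, 44.3% and 42.5%, and in 17 of the 20 promoters of the unfolded protein response (85%). All were searched on both strands, and a match is a description of the sequence only.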

How the data were processed

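The gene set, lists and motifs were chosen with earlier results of these data known. Per the submitters' processing notes, reads were handled with STAR, featureCounts and edgeR on mouse build mm9, with no versions or settings given. They do not state how reads of overlapping or near-identical genes were counted, or whether strand was used. Per the file headers, the authors' deposited tables give gene length in bases, a mean RPKM per group of 4 libraries, a log2 fold change with its p-value and adjusted p-value, and the mean abundance as log2 CPM. Each gene listed at 24 h had at least 0.5 RPKM in the higher group. The log2 ratio of the deposited mean RPKM lay 0.14 below the deposited log2 fold change (median; quartiles -0.146 and -0.134), as the ratio lacks the authors' normalization factors.

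Main calls are the authors' deposited edgeR results at an adjusted p of 0.05. Each deposited mean is a sum of whole reads over library totals, so the totals and reads of the 4 libraries could be solved for, up to a mean of 1500 reads per library. At 24 h 93.4% of Control genes and 93.9% of KO genes had 1 solution and 0 had none, while wrong totals solved 1 of 892 and 3 of 865 genes. The genes listed hold 72.7% and 75.0% of the totals. As these reads are rebuilt, no count model was run on them. Limma 3.58.1 (R 4.3.3) was run on their log2 CPM, with a prior count of 0.5 and median ratio scaling, and was chosen after the data had been seen. Its p-values measure the spread between these libraries. On simulated data it recovered 56 of 100 genes changed by a log2 of 1 and 100 of 100 changed by a log2 of 2, with 5 false calls among 11539. The simulated reads had the same dispersion for all genes and no outlying library, unlike the real ones.

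The difference between times is the difference of deposited log2 values over an error rebuilt from each p (up to 0.9), with a two-sided normal p, Benjamini-Hochberg adjusted. On simulated data with a log2 difference of 2 it recovered 173 of 193 genes with 5 false calls. These data were drawn with normal errors of the rebuilt size. They check the calculation and cannot check the normal error itself. Named genes were Hdac3 and Ucp1. Added were up to 15 per direction with the largest log2 among called genes whose mean log2 CPM was 1 or more. So were up to 10 per direction with the smallest p, and the 10 highest in mean RPKM. Each of 55 lists gave up to 5 called members, and members whose role was needed. The difference from 22 °C gave up to 8 per direction with its smallest p. Up to 6 called genes at 0 in a group were also named. Predicted loci, small RNAs and pseudogenes were passed over. Acacb was named after its value was seen. Some named genes are not reported here. Python 3.11.15 with pandas 2.3.3, numpy 2.4.6, scipy 1.17.1 and matplotlib 3.10.9 was used.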

Additional observations from a re-analysis of the deposited data

Results flagged for a closer look

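In 148 groups of 4 libraries whose values are printed or summed, the highest or lowest library was set against the other 3, and 19 stood apart by Dixon's criterion, read from the gap to the nearest library over the range. Chance gives about 1 in 20 groups of normal values that were not picked. Some groups here were printed as examples of a single high library, and the values are not logs. The count of 19 is therefore a description and no measure of an excess. In Control 1 the value was far above the other Control libraries for Ccl2 (42.6 scaled RPKM), Ccl7 (21.5), Cxcl1 (5.07), Fos (7.86) and Rasef (0.287), and below them for Hspe1 (77.3). In Control 3 Timm50 (67.6) and the sum of skeletal muscle markers (1202.6) were far above and Ccl5 (0.657) below, and in Control 4 Gbp6 (6.00) was above. In KO 2 the interferon-induced GTPases Gbp2 (73.9) and Igtp (57.2) and the muscle sum (569.9) were far above the other KO libraries. In KO 3 Slc6a13 (5.84), Lctl (2.34) and Slc7a10 (41.4) were above, and in KO 4 Mrps18b (66.4), Hgd (4.42) and the lymphocyte marker sum (11.7).

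The test of the difference between the KO effects at 24 h and 22 °C passed for 17 genes listed here. All but Ucp1 and Hdac3 were named for the small p of that difference, so their passing is no separate result. They are not the genes with the largest differences, and the values are a description. The log2 difference was more positive at 24 h for Ucp1 (5.18), Lgr6 (7.95), Kng2 (6.91), the carboxypeptidase subunit Cpn2 (4.28), Cox7a1 (3.30), Acaa2 (3.21), Ldhb of lactate dehydrogenase (2.81) and Cpt1b of the carnitine shuttle (2.47), whose gene overlaps Chkb. It was more negative for Hdac3 (-0.56), Hsd3b7 (-1.93), the integrin Itga7 (-1.93), Srebf1 (-1.99), Slc25a1 (-2.41), the IGF-binding subunit Igfals (-2.41), Mcam (-1.85), the fatty acid transporter Slc27a1 (-1.74) and the hydroxylase Asph (-1.71).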

How the results depend on the processing

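At an adjusted p of 0.01 the deposited calls were 1405 (880 higher, 525 lower), and with a fold change of at least 1.5 they were 1409 (778 higher, 631 lower). Adjustment over the listed genes alone, filters on low values and limma kept the counts within 1.5 times. Limma with library totals alone gave 556 genes higher and 1662 lower. With 1 library left out at a time, limma gave 1152 to 1815 calls, 720 to 1063 higher and 425 to 752 lower. The difference from 22 °C gave 1242 genes at an adjusted p of 0.01 and 2940 with an error rebuilt from a t distribution with 6 degrees of freedom. For the difference from 7 d, these were 2 and 434, and limma with an interaction term gave 2. The cause of these changes was not tested, other than the stricter threshold itself. Hdac3 kept its direction and call, with a log2 of -2.06 as a ratio of means, -1.88 centred and -1.98 to -1.88 by limma with 1 library left out. Of 264 named called genes, 0 changed sign as a ratio of means. That ratio uses the same libraries and differed from the deposited log2 by a near constant -0.14. It is therefore no separate check of their direction. Of the 151 that limma tested, 125 were called, 26 were not and 0 changed sign.

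No paired analysis was possible because the rebuilt libraries carry no replicate number. For the same reason a replicate block was not run, and DESeq2 was not run because no counts per library were among the files used here. Depth limits the low genes: a gene with few reads among 6401435 to 11977140 has wide counting error, and the 403 abundant called genes have no check by library.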
